A study of Mus musculus with 192 samples.

Results

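Transthyretin, the product of the gene Ttr, was followed across a grid of brain samples called voxels. Ttr was represented by 2 of the 20847 rows of the deposited table, the array probes vm000139 and vm005813, which were found by their gene symbol and are given each alone and as their average. It was 1 of 8447 genes with a symbol that could be tested. Every voxel came from adult C57BL/6 male mice of postnatal day 56, with no genetic change or treatment given, and was compared on a 2-colour array with RNA of whole mouse brain. The labels name 68 grid positions in rows A to G and columns 1 to 11, without anatomical directions, and call the voxels pooled samples without saying how many animals were pooled. The 3 datasets were harvested independently and held 59, 68 and 65 arrays, each carrying 1 voxel sample. Values exist for 56 positions in every dataset and for 12 in 2 datasets.

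Transthyretin is a carrier protein that binds the thyroid hormone thyroxine and, together with retinol-binding protein, vitamin A. In the brain it is made by the epithelium of the choroid plexus, the folded tissue inside the ventricles that secretes the cerebrospinal fluid, and it is one of the most abundant messages of that tissue; the liver makes the transthyretin of the blood. Neurons and glia make little or none, so its RNA is often used to locate choroid plexus in brain samples.

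The values are log2 ratios whose rows had been centred by the authors, with 99.93% of rows having a median within 0.001 of 0. The level of Ttr relative to whole brain is therefore not recoverable. A level here is the log2 ratio of an array, centred on the median of that array, minus the median of the same row over the arrays of its dataset. A level of 0 is thus the typical position of that dataset, and a level of 1 is a doubling of the ratio. Both rows have scales of their own, so their levels describe positions and are not amounts that can be set against each other. The labels do not state which channel is the numerator, and more RNA in the voxel for a positive level is likely but not stated. Voxel RNA carried Cy3 in datasets 1 and 3 and Cy5 in dataset 2, and Ttr had positive levels at E4 to E8 in all 3, so the datasets run the same way there; this does not show which channel is the numerator. The basis for the likely direction is that whole brain is called the control. With the sign turned, E4 to E8 would be the lowest block. Pairs of arrays within a dataset correlated at a median of 0.17 and down to -0.573, with 0.676% of the pairs under -0.3. The direction was kept all the same, since the dyes are stated and different regions can oppose each other. In a voxel, more cells of a type and more RNA per cell cannot be told apart. A median of 1.51%, 1.91% and 1.2% of the values of an array was missing or at the floor of the table in datasets 1 to 3. The highest share, 41.54%, was at G8 of dataset 3, where vm005813 was at the floor and the average rests on vm000139 alone.

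Ttr had 1 compact peak, at E4 to E8: the position means of both of its rows were highest there, and the block was high in all 3 datasets. For vm005813 the levels at E4, E5, E6, E7 and E8 were 5.70, 5.62, 7.23, 6.02 and 6.18 in dataset 1. In dataset 2 they were 5.56, 6.52, 6.73, 6.31 and 6.20, and in dataset 3 they were 6.13, 6.94, 6.74, 6.99 and 6.25. No array of these positions had a level of vm005813 under 5.56. Averaged over E4 to E8, vm005813 was at 6.15, 6.27 and 6.61 in datasets 1 to 3, a mean of 6.34 ± 0.24 (SD, n = 3), against medians of -0.09, -0.02 and -0.09 over the other positions. The position means at E6, E7, E5, E8 and E4 correspond to ratios 119.5, 86.9, 82.0, 74.1 and 55.5 times the median position.

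The row vm000139 had its highest mean levels at the same positions, with a smaller step. It was at 2.14, 1.97, 2.23, 1.45 and 3.19 at E4 to E8 of dataset 1, at 0.91, 1.33, 1.28, 1.64 and 1.36 in dataset 2, and at 0.53, 0.73, 0.81, 2.84 and 0.82 in dataset 3. Its mean over these positions was 1.55 ± 0.57 (SD, n = 3), against medians of -0.06, -0.02 and -0.11 elsewhere. In dataset 1 the groups did not overlap for either row. In dataset 2, 3 other arrays had a level above the lowest of E4 to E8 for each row, and in dataset 3 there were 4 such arrays for vm005813 and 7 for vm000139. These positions were singled out with the values known, so the figures are a description and carry no test.

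**Figure D1:**
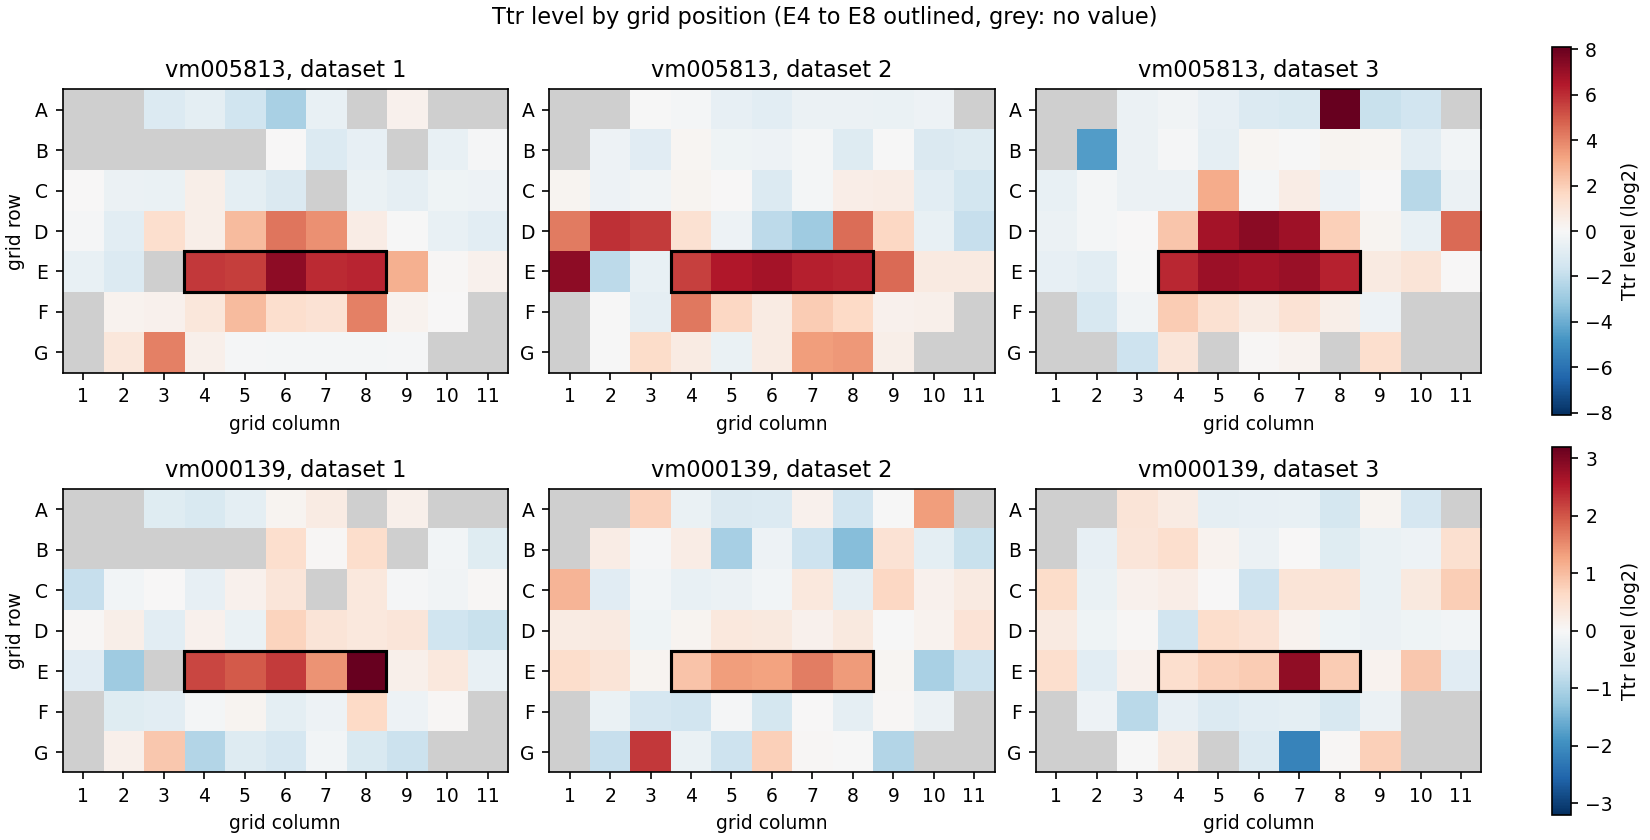
Level of Ttr (log2, colour) at each grid row (vertical) and column (horizontal) for vm005813 (upper maps) and vm000139 (lower maps) in datasets 1 to 3, with a colour scale for each row of the table; grey squares have no value and the box marks E4 to E8. The boxed positions are high in all 6 maps, and vm005813 also has isolated high squares such as E1 of dataset 2 and A8 of dataset 3.

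Across all 68 positions, Ttr differed by a moderated F test in limma that took the dataset as a block (F = 4.58, Benjamini-Hochberg adjusted p = 2.82e-11). By the same test 4.92% of the 15608 features tested were called, and Ttr ranked 56 among them by F, and 44 among the features with a symbol. Tested row by row, vm005813 had an F of 3.78 (adjusted p = 1.39e-08 by limma; the array of G8 in dataset 3 dropped out) and vm000139 an F of 2.70 (adjusted p = 6.14e-05), where 4.81% of 19683 rows were called. Leaving out dataset 1, the adjusted p by limma became 0.114 for vm005813, 0.0814 for vm000139 and 0.0338 for their average. Leaving out dataset 2 it became 0.287 for vm000139. The range of position means of Ttr in the array-centred values, with the dataset medians not removed, was 5.63, the 28th widest of all features, whose median range was 1.58.

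In the average of both rows the order of position means ran from E7 (4.23 ± 0.62) through E6 (4.19 ± 0.51), E8 (4.02 ± 0.62) and E5 (3.87 ± 0.05) to E4 (3.51 ± 0.39; SD, n = 3 each). These steps, at most 0.36, were within the spread of the datasets. The largest step in the whole order, 1.66, came next and led to D6 (1.85 ± 2.47). The standard error of a difference of 2 positions was 0.78. The step was picked as the largest of the sorted means, so nothing is read from its exceeding that value. D6 itself ran between -0.89 and 3.90 and overlapped the range of E4. D5 (1.62 ± 1.88), A8 (1.60 ± 3.05, n = 2), E9 (1.44 ± 0.94) and D7 (1.41 ± 2.50) followed, with steps of at most 0.24 that lay within their spread. For vm005813 alone the order was E6 (6.90 ± 0.28), E7 (6.44 ± 0.50), E5 (6.36 ± 0.68), E8 (6.21 ± 0.03) and E4 (5.80 ± 0.29), then a step of 2.02. For vm000139 it was E7 (1.98 ± 0.76), E8 (1.79 ± 1.24), E6 (1.44 ± 0.72), E5 (1.34 ± 0.62) and E4 (1.19 ± 0.84), with G3 (1.05 ± 1.15) close behind and its largest step, 0.56, after that. G3 of vm000139 rested mainly on dataset 2, where its level was 2.27. That array had a wide spread of values, a median absolute deviation of 1.18 against a median of 0.358 over dataset 2. Of its values 5.57% were missing or at the floor, and the part of this in the level was not tested. Most of the grid was flat: 51 positions had a mean within 1 of 0 in the average, 41 in vm005813 and 62 in vm000139.

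Along row E the peak of vm005813 had a sharp edge between E4 and E3, and one that varied with the dataset between E8 and E9. On one side vm005813 was at 5.56 and 6.13 at E4 in datasets 2 and 3, against -0.63 and -0.06 at E3, which had no array in dataset 1. On the other side it was at 6.18, 6.20 and 6.25 at E8 in datasets 1 to 3, against 2.90, 4.56 and 0.75 at E9. Within the peak, E4 minus E8 was -0.48, -0.64 and -0.12 for vm005813, and E5 minus E7 was -0.40, 0.20 and -0.05. For vm000139, E4 minus E8 was -1.06, -0.46 and -0.29, and E5 minus E7 was 0.53, -0.31 and -2.11. E4 was thus below E8 in each dataset for both rows. Outside it, for vm005813, E3 minus E9 was -5.18 and -0.81, and E2 minus E10 was -1.19, -2.84 and -1.90, so columns 9 and 10 were higher than columns 3 and 2 in each dataset that had both positions. At the outer end, E1 minus E11 was -0.95, 6.57 and -0.75, with the high E1 of dataset 2. In vm000139 the inner flanks had no such order: E3 minus E9 was 0.02 and 0.03, and E2 minus E10 was -1.48, 1.44 and -1.21.

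Across the rows of the grid, the same columns 4 to 8 had means of vm005813 of 6.15, 6.27 and 6.61 in row E of datasets 1 to 3. In the neighbouring row F they were 2.01, 2.05 and 1.11, and in row C, -0.51, -0.10 and 0.51. In row D the datasets were far apart, at 2.32, 0.08 and 5.03. For vm000139 row E stood out alone: row E had means of 2.20, 1.30 and 1.14, row D 0.28, 0.23 and 0.07, and row F 0.04, -0.30 and -0.37. Over all columns the mean level of vm005813 was 3.36 ± 0.40 in row E, 1.66 ± 0.86 in row D, 0.93 ± 0.42 in row F and 0.68 ± 0.50 in row G (SD, n = 3 datasets each). Rows C, B and A were at -0.28 ± 0.17, -0.56 ± 0.08 and -0.47 ± 0.60.

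The datasets disagreed along much of row D, as they also did at A8 and E1. In dataset 1, vm005813 was at 2.58, 4.31 and 3.67 at D5, D6 and D7, and in dataset 3 at 6.74, 7.32 and 6.87. In dataset 2 the same positions were at -0.40, -2.09 and -2.86. Dataset 2 was instead high at D1, D2 and D3, with levels of 4.21, 5.94 and 5.64, where datasets 1 and 3 lay between -0.86 and 1.37. It was also high at D8, at 4.54 against 0.58 and 1.96 in datasets 1 and 3. At D11 dataset 3 was the high one, at 4.61 against -0.88 and -1.86 in datasets 1 and 2. The levels of dataset 2 at D1 to D3 and D5 to D7 thus ran opposite to those of the other datasets. Whether the labelled column order of row D in dataset 2 has a part in this was not tested. The labels' positions were kept, and every value that uses these arrays, the row D means and the column zones included, rests on them. Without the arrays D1, D2, D3, D5, D6 and D7 of dataset 2 the F of Ttr was 7.46, and the correlation of the position maps of the averaged rows changed to 0.774 for datasets 1 and 2 and to 0.599 for datasets 2 and 3. With all arrays these correlations were 0.606 and 0.367, and datasets 1 and 3 correlated at 0.755. The medians over all features for these 3 pairs were 0.055, 0.00369 and 0.0276. The arrays left out are ones on which the Ttr levels of dataset 2 differ from the other datasets, so a higher F and higher correlations without them follow from the choice, and all these values are descriptions.

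**Figure D2:**
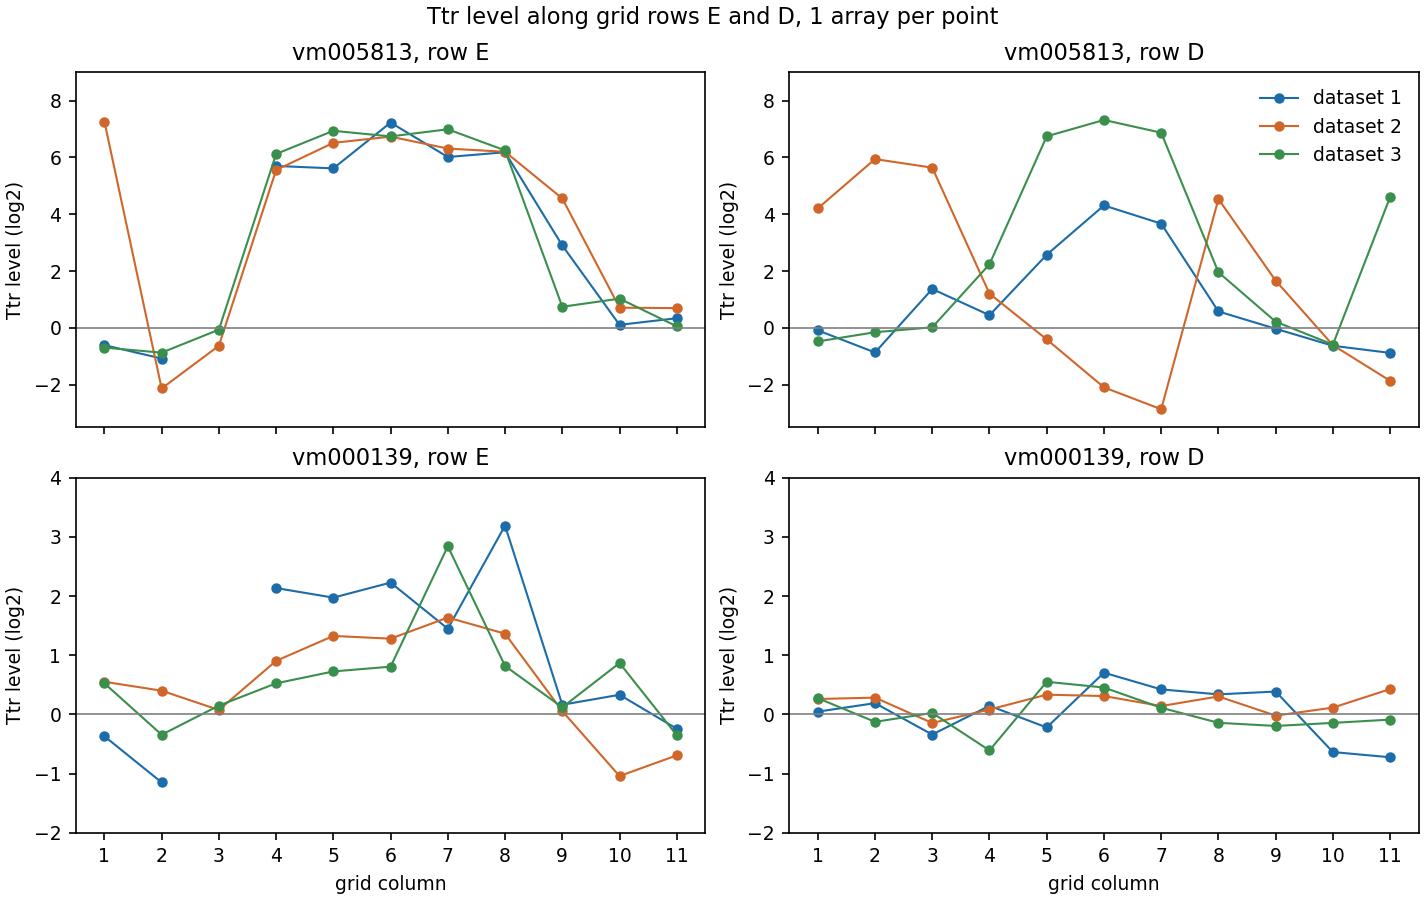
Level of Ttr (log2, vertical) against grid column (horizontal) in row E (left) and row D (right) for vm005813 (top) and vm000139 (bottom), with 1 point per array and 1 line per dataset. In row E the lines of vm005813 run together between columns 4 and 8, while in row D dataset 2 is high at columns 1 to 3 and low at columns 5 to 7, where datasets 1 and 3 are high.

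Both rows of Ttr had the peak in common and little else. Over the arrays, vm000139 and vm005813 correlated at 0.766, 0.403 and 0.361 (Pearson r) in datasets 1 to 3. Without E4 to E8 these values were 0.399, 0.118 and 0.0533. The mean of 0.51 ranked 96 among 2081 genes with exactly 2 rows, whose median was 0.0735. Where vm005813 was high outside the peak, vm000139 mostly was not. At E1 of dataset 2, vm005813 was at 7.26 and vm000139 at 0.55. At A8 of dataset 3, vm005813 had its highest level of all, 8.04, and vm000139 was at -0.55. At D5, D6 and D7 of dataset 3, vm000139 was at 0.55, 0.46 and 0.11.

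A row without a gene symbol in the annotation, vc0339, had the map most like that of the average of both Ttr rows (mean r over the datasets 0.891). It was taken up after its values were seen. It had levels of 5.38, 5.24 and 4.79 over E4 to E8 in datasets 1 to 3 and differed among positions (F = 5.36, adjusted p = 1.53e-13 by limma). It correlated with vm005813 at 0.964, 0.828 and 0.866, and at 0.921, 0.707 and 0.782 without E4 to E8. At D1, D2 and D3 of dataset 2 it was high as well, at 3.42, 4.98 and 4.61. It was also high at D11 of dataset 3 (3.03), G3 of dataset 1 (3.02), F8 of dataset 1 (2.83) and D8 of dataset 2 (4.45), where vm005813 was at 4.61, 4.07, 4.06 and 4.54. At E1 of dataset 2 and A8 of dataset 3, in contrast, vc0339 was at -1.05 and -0.44. The high levels of vm005813 on those 2 arrays were thus shared by neither vm000139 nor vc0339. Of the choroid plexus genes most like Ttr, Ecrg4 was at 1.04 and 0.44 on these arrays and Igf2 at -0.99 and -0.32. The share of values missing or at the floor on these arrays was 6.33% and 3.65%, above the medians of their datasets, and its part in these levels was not tested.

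**Figure D3:**
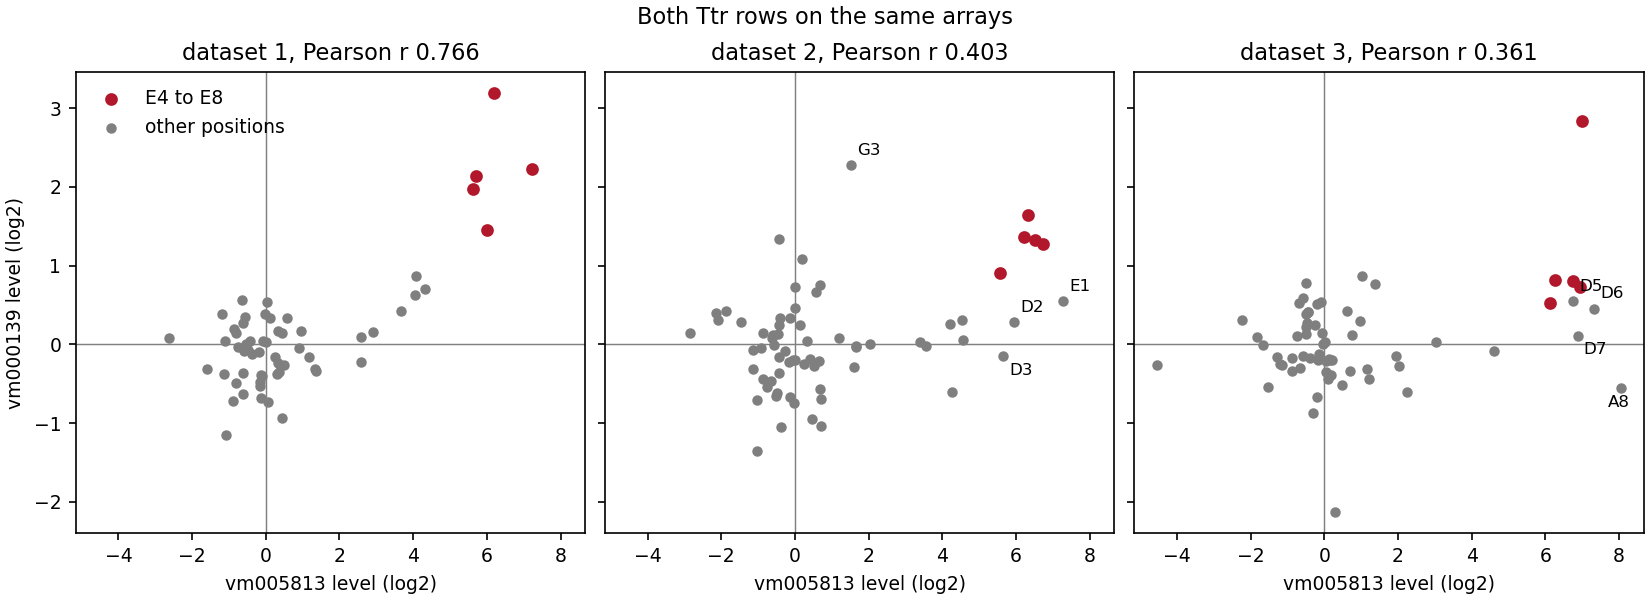
Level of vm000139 (log2, vertical) against level of vm005813 (log2, horizontal), 1 point per array, in datasets 1 to 3; red points are E4 to E8 and grey points all other positions. The red points lie high on both axes, and the named grey points such as E1 of dataset 2 (7.26 and 0.55) and A8 of dataset 3 (8.04 and -0.55) are high for vm005813 alone.

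Zones of the grid were compared by the difference of zone means within each dataset, with limma on n = 3 differences. Row E stood above the other rows by 1.86 ± 0.23 (SD) in the average of both rows, a ratio of 3.62 (adjusted p = 0.0348). Row E averaged 2.15, 2.17 and 1.83 in datasets 1 to 3, against 0.14, 0.20 and 0.24 in the other rows, so it was higher in 3 of 3 datasets. Ttr was the one feature of 15608 called in this comparison, 0.00641% of those tested, while 1231 had an unadjusted p under the same threshold of 0.05. Row by row, vm005813 was called at a difference of 2.96 ± 0.43 (adjusted p = 0.0190), the one row in 19683 (0.00508%), and vm000139 was not (0.75, adjusted p = 0.498). With rows measured on every array only, vm000139 is the only row of Ttr left. The same difference of 0.75 then had an adjusted p of 0.00157 by limma, so the call of vm000139 differed with the set of rows tested. Row E was chosen with earlier results of these data known, so this test is not independent of the choice. The call of the average also depended on the processing: the adjusted p was 0.0869 without centring the arrays, 0.191 with floor values kept, 0.104 without the filter on missing values and 0.883 without dataset 2, with differences between 1.80 and 1.88.

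E5 to E7 were higher than C5 to C7, 2 rows away in the same columns, by 4.08 ± 0.41, a ratio of 16.9. The zone means were 4.12, 3.97 and 4.19 at E5 to E7, against -0.32, -0.20 and 0.56 at C5 to C7. This comparison too was chosen with earlier results of these data known, so its test is not independent of the choice. The adjusted p of 0.0896 by limma missed the threshold, as it did for every feature (0% called, 1099 at an unadjusted p under 0.05). By limma the adjusted p was 0.0115 with quantile normalization and 0.0125 without dataset 3. With rows measured on every array only, vm000139 alone remains, and its difference of 1.515 had an adjusted p of 0.00461. Tested among all rows, the same difference of vm000139 had an adjusted p of 0.674. Under other settings the adjusted p of the average rose, to 0.871 without dataset 1, 0.960 without dataset 2 and 0.251 with floor values kept. Without the filter on missing values it was 0.1625, and with only the positions present in all 3 datasets 0.253. Positions inside the section were above those on its perimeter by 0.72 ± 0.36, with means of 0.88, 0.64 and 0.79 for 42 interior positions against -0.15, 0.31 and -0.01 for 26 on the perimeter. This was not called for the average (adjusted p = 0.144, 0.109% of features called). It was called for vm005813 alone (1.23 ± 0.48, adjusted p = 0.0271), with 0.152% of rows called, and for the average with quantile normalization (adjusted p = 0.0301).

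Ttr was not called in the 3 remaining zones. Columns 5 to 7 were above columns 1 to 3 and 9 to 11 by 0.89, 0.11 and 1.30 in datasets 1 to 3 (mean 0.77 ± 0.61, adjusted p = 0.265). The limma test called 0% of features there, with 2054 at an unadjusted p under 0.05. Without dataset 2, whose row D levels are described above, the difference was 1.10 with an adjusted p of 0.00734 by limma. Dataset 2 had the smallest difference, so a larger mean without it follows from the choice. The adjusted p was 0.291 without dataset 1 and 0.376 without dataset 3. Columns 1 to 5 minus columns 7 to 11, in mirror pairs, gave -0.10, 0.26 and -0.36 (mean -0.07 ± 0.31, adjusted p = 0.977), with 0% of features called and 497 at an unadjusted p under 0.05. Rows A and B lay below rows F and G by -0.79, -0.86 and -0.23 as differences in datasets 1 to 3 (mean -0.62 ± 0.35, adjusted p = 0.334, 0.109% of features called). Here the rows of Ttr differed in sign, and vm000139 alone gave 0.13.

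Genes were then ranked by the likeness of their maps to that of Ttr, the Pearson r over the positions of one dataset averaged over the 3 datasets. Here and in the lists below, the map of Ttr is the average of both rows. That average had an r of 0.981 with vm005813 and 0.664 with vm000139, so the ranking follows mostly vm005813. Over 15607 features the median of this value was 0.02, and the 5th and 95th percentiles were -0.17 and 0.20. The 10 named genes with the highest values were Ecrg4 (0.664), Igf2 (0.623), Ccdc153 (0.566), Dynlrb2 (0.564), Lpar1 (0.488), Lbp (0.474), Ezr (0.466), C1qtnf5 (0.452), Cd63 (0.450) and Ndrg1 (0.440). In the same order, r with vm000139 alone was 0.683, 0.594, 0.569, 0.457, 0.345, 0.315, 0.488, 0.286, 0.442 and 0.265. With vm005813 alone it was 0.592, 0.567, 0.507, 0.526, 0.469, 0.464, 0.413, 0.44, 0.413 and 0.43. Of these 10, 7 were called among positions by limma, where 4.92% of all features were; genes chosen for one map in all datasets tend to be called, so nothing is read from this count. Without E6 and E7, the positions farthest from the median of Ttr, r was 0.58 for Ecrg4, 0.523 for Igf2, 0.51 for Ccdc153 and 0.52 for Dynlrb2. By Spearman's rho, to which the flat positions count as much as the peak, these genes were at 0.394, 0.4, 0.462 and 0.463. Points share arrays, and with them array quality, so no p is given.

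Ecrg4, which codes for the precursor of a secreted peptide made in choroid plexus epithelium, was at 1.84, 1.99 and 1.98 over E4 to E8 in datasets 1 to 3, against a mean of -0.09 ± 0.13 elsewhere. It differed among positions (F = 4.29, adjusted p = 2.76e-10 by limma), with its highest mean at E5 (2.21 ± 0.25, n = 3). At D5, D6 and D7 its levels were 1.65, 2.24 and 1.56 in dataset 3 and 0.97, 0.81 and 0.33 in dataset 1. In dataset 2 they were 0.39, 0.44 and 0.32. At D5 and D6 dataset 3 was highest and dataset 2 lowest, as for vm005813, and at D7 datasets 1 and 2 were alike. In dataset 2 Ecrg4 was at 0.51, 0.33 and 0.47 at D1, D2 and D3, so it lacked the high levels that vm005813 had there.

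Igf2, a growth factor, was at 1.45, 1.73 and 1.39 over E4 to E8, against -0.02 ± 0.10 elsewhere (F = 2.83, adjusted p = 2.32e-05 by limma). Its highest mean was at E7 (2.19 ± 0.62, n = 3), the position where the average of Ttr was highest. In row D of dataset 2, Igf2 was at 1.21 at D2 and 1.24 at D3, against -0.52 at D5 and -0.37 at D6. In dataset 3 it was at 1.36 at D5 and 1.02 at D6. Both Igf2 and vm005813 were thus higher at D2 and D3 than at D5 and D6 in dataset 2.

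Ccdc153 and Dynlrb2 are known from motile cilia, which beat on the ependymal cells that line the ventricles; Dynlrb2 codes for a light chain of dynein. Ccdc153 was at 0.41, 0.99 and 0.34 over E4 to E8, against -0.01 ± 0.03 elsewhere, and differed among positions (F = 2.41, adjusted p = 0.00061 by limma). Dynlrb2 was at 0.81, 1.11 and 0.92, against 0.02 ± 0.06, and was not called (F = 1.56, adjusted p = 0.193). In dataset 3 Dynlrb2 was at 2.85, 2.06 and 1.15 at D5, D6 and D7. In dataset 2 it was at 0.32, 0.35 and 0.16 at these positions, and at 0.91, 1.025 and 0.78 at D1, D2 and D3. At E1 of dataset 2 it was at -0.04.

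**Figure D4:**
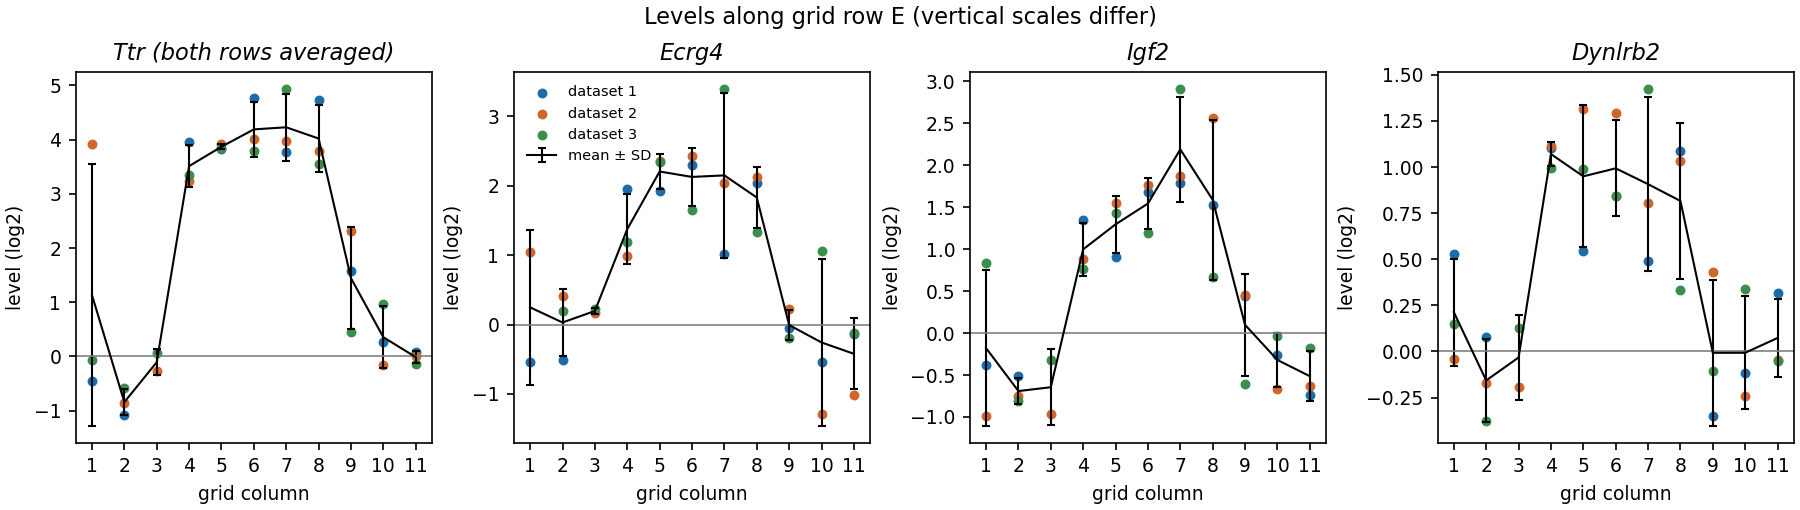
Level (log2, vertical) along grid row E (horizontal, column) for the average of both Ttr rows and for Ecrg4, Igf2 and Dynlrb2, with 1 coloured point per array and dataset and the mean ± SD in black; the vertical scales differ. All 4 genes have means above their median position between columns 4 and 8, and E1 of dataset 2 is high for Ttr.

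Of the remaining like genes, Ezr codes for ezrin, which ties the cell membrane to actin in microvilli, and was at 0.59 ± 0.14 over E4 to E8 (F = 2.25, adjusted p = 0.00199 by limma). Lpar1, a receptor for lysophosphatidic acid, was at 0.79 ± 0.13 (F = 3.96, adjusted p = 3.27e-09), Cd63, a tetraspanin of lysosomes and secreted vesicles, at 0.86 ± 0.17 (F = 3.87, adjusted p = 5.77e-09), and Ndrg1 at 1.00 ± 0.35 (F = 3.93, adjusted p = 4.33e-09; SD, n = 3 datasets each). Lbp, the lipopolysaccharide-binding protein, was at 1.14 ± 0.26 and C1qtnf5, a secreted relative of complement C1q, at 0.96 ± 0.26, neither of them called. Lpar1 and Ndrg1 also had high positions away from the Ttr peak. Lpar1 was at 0.91 ± 0.15 at C8, and Ndrg1 at 1.32 ± 0.40 at C4.

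The 5 named genes with the lowest values were Rtn1 (-0.478), Kcnc4 (-0.467), Adgrl2 (-0.448), Ttc3 (-0.436) and Sst (-0.433). Over E4 to E8, Kcnc4, a voltage-gated potassium channel, was at -0.97 ± 0.44 and Sst, the peptide somatostatin of interneurons, at -0.67 ± 0.12. Both differed among positions by limma (adjusted p = 0.00042 and 2.14e-05). Adgrl2, a latrophilin receptor, was at -0.82 ± 0.48, Rtn1, a reticulon of the endoplasmic reticulum of neurons, at -0.42 ± 0.16 and Ttc3 at -0.30 ± 0.06 (SD, n = 3 each), and these 3 did not pass.

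**Figure D5:**
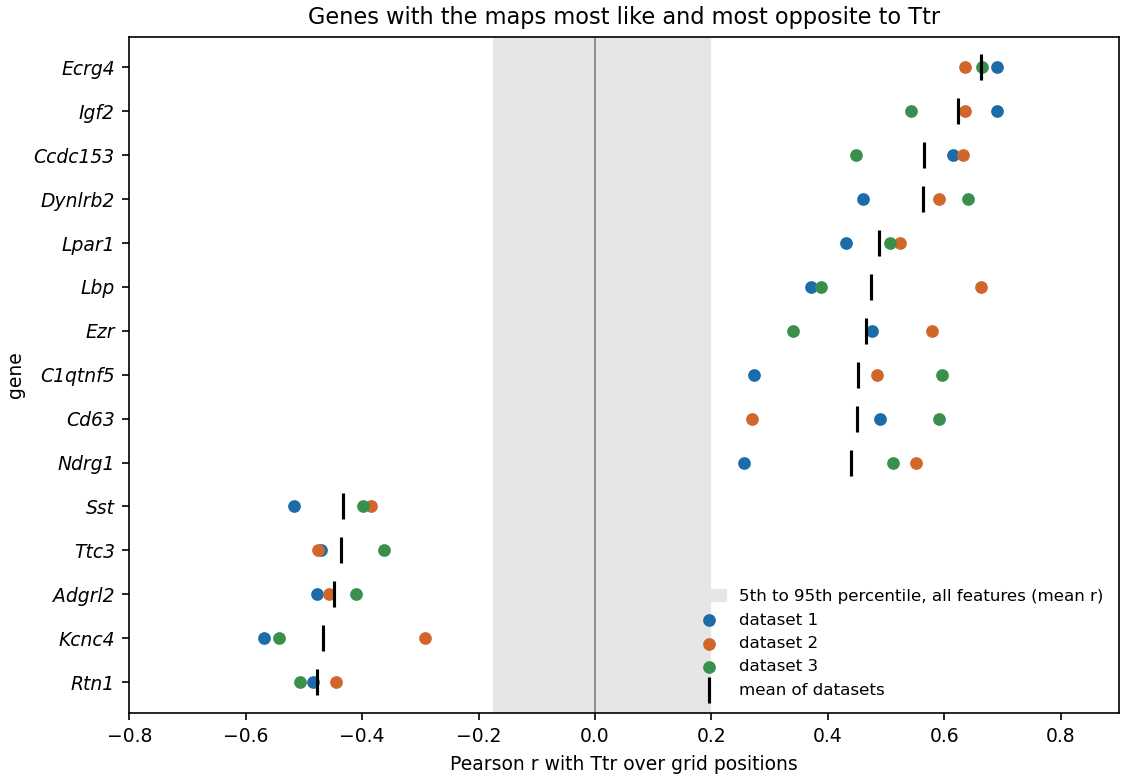
Pearson r with the average of both Ttr rows over grid positions (horizontal) for the 10 most like and the 5 most opposite named genes (vertical), with 1 coloured point per dataset and a black bar for the mean; the grey band spans the 5th to 95th percentile of the mean over all features, -0.17 to 0.20. Ecrg4 (0.664) and Igf2 (0.623) have the highest means. All points lie outside the band, but the band is of means and the points are of single datasets. The genes were also chosen for extreme means of the same sign in all datasets, so nothing is read from this.

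Other markers of choroid plexus epithelium were examined to place the Ttr peak. Of 45 listed genes besides Ttr, 19 were measured and 4 differed among positions by limma: Ecrg4, Igf2, Slc12a2, the sodium, potassium and chloride cotransporter of the plexus, and Vat1l. The background for that count is the 4.92% given above. The median r with Ttr over the 19 was 0.301, and 17 had an r above 0 in all 3 datasets, as did 23.2% of all features. The mean level of the list over E4 to E8 was 0.53, 0.87 and 0.61 in datasets 1 to 3, against -0.02 ± 0.004 elsewhere. Slc12a2 was at 0.32 ± 0.06 over E4 to E8 (F = 2.12, adjusted p = 0.00508). Vat1l was at 0.10 ± 0.25 there, with an r of 0.02. Folr1, the folate receptor of the plexus, was at 0.03, 1.20 and 1.08 and Otx2, a transcription factor of its epithelium, at 0.19, 1.00 and 0.49, and neither was called (F = 1.32 and 0.77). Calml4 was at 0.90 ± 0.14 and Cab39l at 0.58 ± 0.03, also not called (adjusted p = 0.134 and 0.124 by limma).

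Markers of other cell types were counted in the same way, against the same 4.92% of all features called. Of 8 measured ependymal genes 2 were called, Ccdc153 and Rarres2, and the list had a median r of 0.262. Its level over E4 to E8 was 0.30, 0.60 and 0.52, against -0.01 ± 0.002 elsewhere. Of 10 meningeal genes 1 was called, Igf2, with a median r of 0.148. Of 4 myelin genes 3 were called, Bcas1, Cryab and Qdpr, and the list had a median r of 0.356 and a level of 0.75 ± 0.28 over E4 to E8. With vm000139 alone, Bcas1, Cryab, Qdpr and Mbp had an r of 0.226, 0.17, 0.168 and -0.0791. With vm005813 alone these genes were at 0.389, 0.385, 0.354 and 0.0889. Of 5 thalamic genes 3 were called, Plekhg1, Prkcd and Tcf7l2 (median r 0.273). Their level was 0.46 ± 0.30, with Tcf7l2 at 2.21, 0.45 and 0.08 in datasets 1 to 3. The single hippocampal gene measured, Bok, was called and had an r of 0.318. The part of these cell types in the likeness values was not tested.

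For the lists that follow the background is again 4.92%, and no test compared one list with another. Of 7 endothelial and mural genes 0 were called by limma (median r 0.0858), and 1 of them had an unadjusted p under 0.05. Of 2 blood genes 1 was called, Hbb-b1, at 0.03 ± 0.42 over E4 to E8. Striatal genes were called in 6 of 7 (Arpp21, Foxp1, Meis2, Ppp1r1b, Rasd2 and Syndig1l; median r -0.02). The striatal list was at -0.11, 0.39 and 0.37 over E4 to E8 in datasets 1 to 3, against 0.07 ± 0.05 elsewhere, and Ppp1r1b at 0.63, 1.22 and 1.35, against 0.30 ± 0.06. Cortical genes were called in 3 of 3 (Fezf2, Mef2c and Vxn; median r -0.128). Of 3 hypothalamic genes Cartpt and Ndn were called (median r -0.231), and of 5 astrocyte genes Aldoc, Slc1a3 and Sparcl1 (median r -0.003).

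Genes of the hormone and vitamin that transthyretin carries were counted in the same way. Few of them were measured, so nothing is read from these counts. Of 28 genes for the transport, conversion and sensing of thyroid hormone, 9 were measured and 1 was called (4.92% of all features), Klf9, a transcription factor induced by the hormone (F = 4.32, adjusted p = 1.83e-10 by limma). Klf9 had an r of 0.10 with Ttr and a level of 0.02 ± 0.13 over E4 to E8. Over the 9 genes the median r was 0.0824, between -0.275 for the coactivator Ncoa1 and 0.184 for Alb, the serum albumin. Dio2, the deiodinase that activates thyroxine, had an r of 0.10 and was not called (adjusted p = 0.36).

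Of 25 genes for retinoid transport and metabolism, 8 were measured and 1 was called (4.92% of all features), Aldh1a1, an enzyme that makes retinoic acid (F = 2.13, adjusted p = 0.00478 by limma). Aldh1a1 was at -0.08 ± 0.17 over E4 to E8. Rbp4, the retinol-binding protein that transthyretin carries, had the lowest r of the list, -0.104. It was at -0.08, -0.08 and -0.74 over E4 to E8 and was not called. Stra6, the receptor of that protein, had the highest r, 0.126, and a level of 0.07 ± 0.08. The median r was 0.0311, close to the median over all features.

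Of 14 measured genes for the secretion of cerebrospinal fluid, 4 were called (4.92% of all features): Slc12a2, the sodium pump subunits Atp1b2 and Atp1b3, and the carbonic anhydrase Car14. Car14 was at 0.72, 0.54 and 1.43 over E4 to E8, against -0.09 ± 0.04 elsewhere (adjusted p = 0.000143 by limma). Atp1b3 was at 0.43, 0.67 and 0.29, against -0.04 ± 0.006 (adjusted p = 6.93e-06). Atp1b2 had an r of -0.08 with Ttr, and the median r over the list was 0.0806. Transthyretin also binds the amyloid beta peptide, and of 13 measured genes around that peptide 2 were called (4.92% of all features). Cst3, which codes for cystatin C, was at 0.41 ± 0.13 over E4 to E8 (adjusted p = 0.00122 by limma), and Itm2c had an r of -0.07. The precursor gene App itself had an r of 0.01, and the median r over these 13 genes was 0.0432.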

How the data were processed

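The authors deposited 1 table of log2 ratios of voxel over whole brain RNA, or the inverse. The sources used here do not give the scanner, the background correction or the normalization. Per the labels' protocols, Trizol was used to extract the RNA, and dye was coupled after reverse transcription. A labelling note on LiCl-treated samples matches no other label. In the deposited log2 values, 0.4922% were at a floor of -6.64, the log2 of 0.01, and 1.927% were missing, and the floor counted as no measurement.

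The median of each array was subtracted (a shift of at most 0.353), 20 control rows were left out, rows with values on under 80% of the arrays of any dataset were dropped, and rows of one symbol were averaged, which gave 15608 features, 8447 of them with a symbol. Of the rows, 13164 had 1 symbol, 317 had several, 7319 had none and 47 had one of another species; 12982 matched the mouse gene table. All columns were mapped by the labels. Arrays give no read depth, and their number limits the precision.

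Positions were compared with limma 3.58.1 (R 4.3.3) by a moderated F test with the dataset number as a block, and zones by limma on the within-dataset difference of zone means, two-sided, both with Benjamini-Hochberg adjustment over all features and a threshold of 0.05. The code was tested on simulated data. The labels say the datasets were harvested independently, so the number pairs the arrays; after subtraction of position means, arrays correlated at a median of 0.237 within a dataset and -0.124 between datasets. Dye orientation is tied to the dataset and cannot be told apart from it. Nothing says how far the pools differ in animals, so p-values measure the spread between these datasets. The highest correlation of any 2 arrays was 0.826, and none was taken for a repeat.

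Genes named are Ttr, the 10 genes with a symbol that have the highest and the 5 that have the lowest mean r with Ttr and the same sign in all datasets, called members of the lists, and the members with the highest and lowest r of the choroid plexus, thyroid hormone and retinoid lists; vc0339 and the other list members were chosen after their values were seen. The gene, the zones around row E and the lists were chosen with earlier results of these data known. No sequence is shown. Figures were drawn with matplotlib 3.10.9.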

Additional observations from a re-analysis of the deposited data

How the results depend on the processing

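Ttr differed among positions under all 12 settings, with an F of 2.23 to 6.77 when 1 dataset was left out; without the replicate block it was 4.22 (adjusted p = 4.13e-10), with array weights 4.68 and with quantile normalization 3.55. When 1 dataset was left out, F was 1.81 to 2.69 for vm000139 and 1.96 to 6.71 for vm005813. Of all features, 768 were called, 366 with no replicate block, 1161 with quantile normalization, 2499 with array weights and 214 to 529 without 1 dataset. Row E minus the other rows lost its call without array centring (1.86), with floor values kept (1.88), without the filter on missing values (1.86), without dataset 2 (1.80) and for vm000139 alone among all rows (0.75). It kept its call without dataset 1 (1.78) and without dataset 3 (1.99). With rows measured on every array only, where vm000139 alone remains, it was also called (0.75). Interior minus perimeter passed with quantile normalization (0.70) and for vm005813 alone (1.23). E5 to E7 minus C5 to C7 passed with quantile normalization (3.65) and with rows measured on every array only (1.51), where vm000139 alone remains. Its difference was 3.90 to 4.32 without 1 dataset, and of these omissions only that of dataset 3 passed. Columns 5 to 7 minus the outer columns was 0.50 to 1.10 without 1 dataset. Rows A and B minus rows F and G turned positive for vm000139 alone and with rows measured on every array only (0.13 in both). Columns 1 to 5 minus columns 7 to 11 turned positive with the positions of all 3 datasets only (0.0813), and ran from -0.23 to 0.0812 without 1 dataset. Where vm005813 drops out, the difference is that of vm000139 alone. In both comparisons of row E that difference was called there, but not among all rows (adjusted p = 0.498 and 0.674 by limma). What changed the calls, here and under the other settings, was not tested. Of the 10 genes most like Ttr, 4 were kept by Spearman's rho and 7 to 8 under the other settings run.

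Limits are that rows were centred before deposit, that the numerator of the ratio is not stated, that n is 3 datasets of pooled voxels, and that a signal over background is not given, so the smaller range of vm000139 cannot be set against a detection limit.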
